A study of Mus musculus with 6 samples.

Results

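Transient receptor potential (TRP) channels are the cation channels through which sensory neurons detect heat, cold and irritants. Of the 38926 gene symbols in the count tables, 9 were examined, chosen by symbol: Trpv1, Trpv2, Trpv4, Trpa1, Trpm2, Trpm3, Trpm8, Trpc1 and Trpc5. All 9 were present and had reads in every library, and all 9 passed the filter on low counts. RNA came from whole dorsal root ganglia, which hold the cell bodies of sensory neurons, at lumbar levels L3 to L5 of wild-type male C57BL/6 mice aged 6 to 8 weeks. There were 3 libraries from mice with a burn injury, taken on day 3, and 3 control libraries. One burn title reads BURN_IP, where IP is not spelled out and may or may not stand for ipsilateral, and has no number. This library is called burn 3. The labels give neither the burned site, nor plainly the side of any burn library, nor how controls were handled. They call the tissue both neurons and whole ganglia, and the extraction they describe used whole ganglia.

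TRP channels are tetramers that open to temperature, chemical ligands or lipids and let sodium and calcium into the cell. In pain-sensing neurons TRPV1 answers noxious heat, acid and capsaicin, TRPA1 answers irritants such as mustard oil, and TRPM3 answers heat and neurosteroids. TRPM8 marks the neurons that sense cooling and menthol. Inflammatory mediators are known to sensitise TRPV1 and TRPA1 by phosphorylation and trafficking of the channel protein, which read counts do not measure.

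Reads counted in genes ranged from 22023565 to 70002671 in the burn libraries and from 17273908 to 81968142 in the control libraries. Burn 3 and control 3 were the deepest of their groups and had the highest mitochondrial shares, 5.44% and 4.41%, against 1.71% to 2.70% in the other 4. Neuron markers were present in every library, all 12 of 12 genes, with a summed level of 11794 to 14305 CPM (normalised read counts, each library scaled to a common size by TMM) in burn libraries and 12638 to 18209 CPM in controls. The summed level of 11 markers of spinal cord cells, none at 0, was higher in the burn libraries. It was 101 to 200 CPM there and 49.9 to 95.6 CPM in controls. Burn 2, at 101 CPM, lay close to controls 1 and 2, at 94.5 and 95.6 CPM. The groups did not overlap in 6 of the 11 markers, against 7.24% of all tested genes. Mobp, Aqp4 and Gfap, the most abundant of the 11, overlapped. All 11 had positive log2 fold changes, burn over control. At an edgeR unadjusted p under 0.05 there were 10 of the 11, against 2.96% of all tested genes, and 0 were called. The part of these markers in the values below was not tested. Atf3, a transcription factor of injured neurons, stood at 80.9, 75.6 and 60.05 CPM in the burn libraries and 6.99, 6.73 and 7.20 CPM in the controls, and it was 1 of the 4 genes called over the whole table (log2 fold change 3.37, SE 0.15, edgeR adjusted p = 0.000387). Nothing in the labels says that libraries came from separate animals. The p-values therefore reflect only how far these 6 samples spread, and that spread may be technical. In whole ganglia, fewer cells of a type and less RNA per cell cannot be told apart.

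In the GENCODE M21 annotation of GRCm38 all 9 are protein-coding genes. Trpv1 lies on chromosome 11 at 73234292 to 73261242 and Trpv2 on the same chromosome at 62574486 to 62600515, both on the plus strand. Trpv4 lies on chromosome 5 at 114622152 to 114658421, on the minus strand. Trpa1 lies on chromosome 1 at 14872648 to 14918862 on the minus strand, and Trpm8 on the same chromosome at 88277661 to 88389293 on the plus strand. Trpm2 is on chromosome 10 at 77907722 to 77970563 on the minus strand, and Trpm3 on chromosome 19 at 22139046 to 22995410 on the plus strand. Trpc1 is on chromosome 9 at 95705082 to 95750375 and Trpc5 on chromosome X at 144381671 to 144688180, both on the minus strand. Exons of other annotated genes overlap those of Trpm2, Trpm3 and Trpm8, and the partners that the tables list held 0 to 12 reads over all 6 libraries. One antisense partner of Trpm3, Gm27151, is not a symbol of the tables. No source used here says whether counting used strand, so its reads and those of Trpm3 cannot be told apart. The miRNA gene Mir204, which lies in an intron of Trpm3, had 5 reads over all 6 libraries.

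Because Atf3 and its partners bind sites of the AP-1 and cyclic AMP response element (CRE) type, the stretch of 250 bases before each annotated start in the RefSeq promoter table (GRCm38.p6) was searched for these letters, on both strands. The table held 11 starts for 8 of the 9 genes and none for Trpa1. Neither TGANTCA (AP-1) nor TGACGTCA (CRE) occurred in any of the 11 windows, while 6.75% and 1.55% of all 32851 windows held them. The TATA box letters TATAAA occurred in 2 of the 11, those of Trpm2 and Trpm8, against 12.37% of all windows. The match of Trpm8 was on the strand of the gene, and that of Trpm2 only on the opposite strand. The windows of Trpv1, the heat receptor, and of Trpm3 and Trpm8, whose values varied together over the libraries, are shown 5′ to 3′ on the plus strand, and capitals mark TATAAA. They are chr11:73233899-73234148 for Trpv1, chr1:88306485-88306734 for Trpm8 and chr19:22138796-22139045 for the first of the starts of Trpm3.
Trpv1: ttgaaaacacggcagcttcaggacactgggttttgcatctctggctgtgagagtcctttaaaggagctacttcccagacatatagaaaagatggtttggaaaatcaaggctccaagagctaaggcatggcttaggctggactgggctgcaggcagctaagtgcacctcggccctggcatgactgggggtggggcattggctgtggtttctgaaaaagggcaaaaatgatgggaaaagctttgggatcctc
Trpm8: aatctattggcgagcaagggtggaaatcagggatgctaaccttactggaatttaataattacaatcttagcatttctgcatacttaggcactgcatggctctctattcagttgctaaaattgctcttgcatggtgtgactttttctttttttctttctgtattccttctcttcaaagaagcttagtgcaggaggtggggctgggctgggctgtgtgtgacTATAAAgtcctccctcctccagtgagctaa
Trpm3: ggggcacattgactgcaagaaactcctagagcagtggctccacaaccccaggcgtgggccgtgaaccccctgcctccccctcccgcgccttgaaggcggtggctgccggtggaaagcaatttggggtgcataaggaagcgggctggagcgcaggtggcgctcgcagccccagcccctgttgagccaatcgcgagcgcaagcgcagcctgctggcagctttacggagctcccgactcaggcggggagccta
The TATAAA of Trpm8 began 30 bases before the start. The 3 windows differed in base composition, at 50.8% G and C for Trpv1, 42.8% for Trpm8 and 66.4% for Trpm3, against a median of 52.4% over all windows. A match or its absence describes these letters in these windows and says nothing about binding. The RefSeq start of Trpm8 lies inside the GENCODE gene span.

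Levels were compared between genes per kilobase (kb) of exons, in CPM per kb. Trpv1 was the most abundant of the 9, with 27.3, 38.6 and 37.1 CPM per kb in burn libraries and 32.3, 33.7 and 37.3 CPM per kb in controls. The irritant receptor gene Trpa1 came next at 18.6 ± 2.04 CPM per kb (SD over the 6 libraries), beside Trpv2, first described as a channel of extreme heat, at 17.8 ± 1.50. These 2 could not be ordered, since Trpa1 was above Trpv2 in 3 of 6 libraries. Trpm8, the cold receptor gene, stood at 7.79 ± 1.45 CPM per kb, below Trpv2 in all 6 libraries and above Trpc1 in all 6. Trpc1, which encodes a subunit of canonical TRP channels, had 3.87 ± 0.489 CPM per kb. Trpm2, a channel opened by oxidative stress and warmth, had 3.08 ± 0.309, and Trpm3 had 2.97 ± 0.488 CPM per kb. The library ranges of Trpc1 and Trpm2 overlapped, as did those of Trpm2 and Trpm3. Trpv4, a channel of osmotic swelling and warmth, had 0.730 ± 0.125 CPM per kb, and Trpc5, a canonical channel with cold responses, was lowest at 0.323 ± 0.0714. Mean levels of Trpv1 and Trpc5 lay 106-fold apart. With the longest annotated transcript as the length, Trpv2 stood above Trpa1 and Trpm3 above Trpm2, while the other 5 genes kept their places. That length also gave higher levels, 6.81 CPM per kb for Trpc1, 5.90 for Trpm3 and 5.28 for Trpm2, each over 1.5 times the level per exon union.

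**Figure D1:**
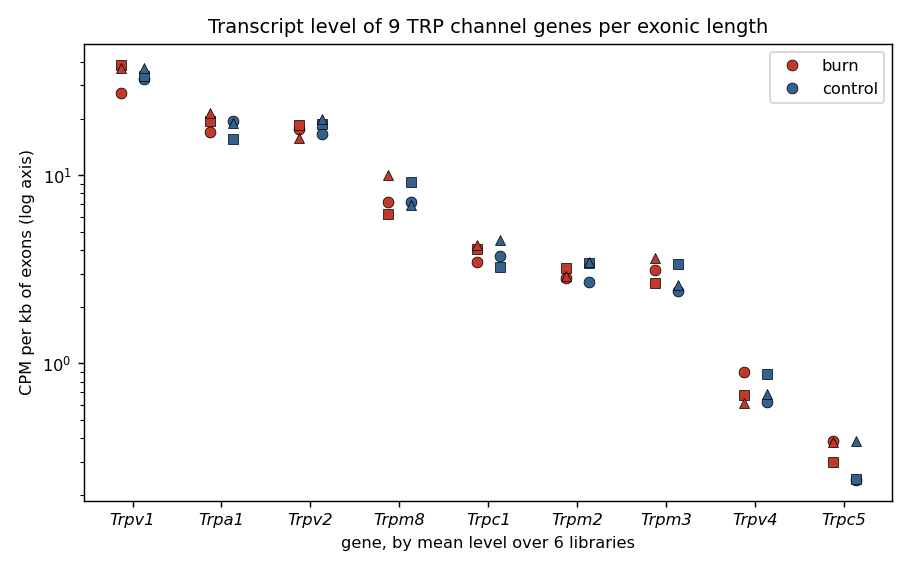
Level of each TRP channel gene in CPM per kb of exons, on a log axis, ordered by the mean over 6 libraries; each point is 1 library, burn (red) left of control (blue), with circles, squares and triangles for libraries 1, 2 and 3. Trpv1 was highest and Trpc5 lowest, and burn and control points of each gene overlap.

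The comparison of burn with control asked whether the transcripts of these sensors differ in ganglia during burn pain. No TRP channel gene passed the test in either direction. In edgeR's quasi-likelihood test over 17534 genes, 0 of the 9 had an adjusted p under 0.05, where 0.0228% of all tested genes did (4 genes, all higher after burn). At an unadjusted p under 0.05 there were again 0 of the 9, against 2.96% of all genes, and DESeq2 and limma-voom also called 0 of the 9. Burn and control values overlapped in all 9 genes. They did not overlap in 7.24% of all tested genes, a share too small for 0 of 9 to set these genes apart. The log2 fold changes, burn over control, ran from -0.096 for Trpm2 to 0.27 for Trpc5, with a median of 0.013, beside a median of 0.0080 over all tested genes. Summed over the 9 genes, the level was 430, 479 and 509 CPM in burn libraries and 436, 473 and 487 CPM in controls. The 95% intervals of the 9 fold changes reached down to 0.689-fold and up to 1.87-fold. With 3 libraries a group the test also left large differences uncalled. Of 7 listed nerve injury genes, 2 were called, against 0.0228% of all tested genes. Sprr1a, at 86.1-fold, was not called (edgeR adjusted p = 0.196), nor was Ecel1, at 7.24-fold (edgeR adjusted p = 0.0876). A count of 0 called therefore does not show that the 9 genes were unchanged.

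Among the heat sensors, Trpv1 had 100.4, 142 and 136 CPM in burn libraries 1 to 3 and 119, 124 and 137 CPM in controls 1 to 3. The burn libraries held both its lowest and its highest value, with burn 1 apart from the other 5. The 11 markers of nociceptor subtypes, none at 0, also summed lowest in burn 1. Their sums were 3286 to 3826 CPM in burn libraries and 3486 to 3855 CPM in controls. This was not particular to nociceptor markers. The 12 neuron markers, at 11794 CPM, and 6 satellite glia markers, at 2336 CPM, were lowest in burn 1 as well. The part of these markers was not tested. The log2 fold change of Trpv1, -0.0033, had a 95% interval of -0.36 to 0.35, or 0.781-fold to 1.27-fold. Without burn 1 it was 0.14, and Trpv1 was still not called. Trpm3 had 76.3, 65.0 and 89.2 CPM in burn libraries and 59.1, 82.5 and 63.5 CPM in controls. Burn 3 was highest and control 1 lowest, while control 2 lay above burn 1 and burn 2. The log2 fold change of Trpm3 was 0.17 (SE 0.17; interval 0.858-fold to 1.48-fold; edgeR unadjusted p = 0.342). It was 0.061 without burn 3 and 0.32 without control 2, and not called in either case. Trpv2 had 78.8, 83.1 and 70.8 CPM in burn libraries and 74.6, 83.5 and 89.5 CPM in controls. The 2 deep libraries lay at its ends, burn 3 lowest and control 3 highest, and the log2 fold change was -0.090 (SE 0.12). Trpm2 had 35.4, 39.8 and 36.2 CPM in burn libraries and 33.7, 42.5 and 42.8 CPM in controls, where controls 2 and 3 were above every burn library and control 1 below all of them. Trpm2 and Trpv2 had the smallest coefficients of variation of the 9 over the 6 libraries, 10.03% and 8.41%, against a median of 13.5% for all tested genes of at least 1 CPM.

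**Figure D2:**
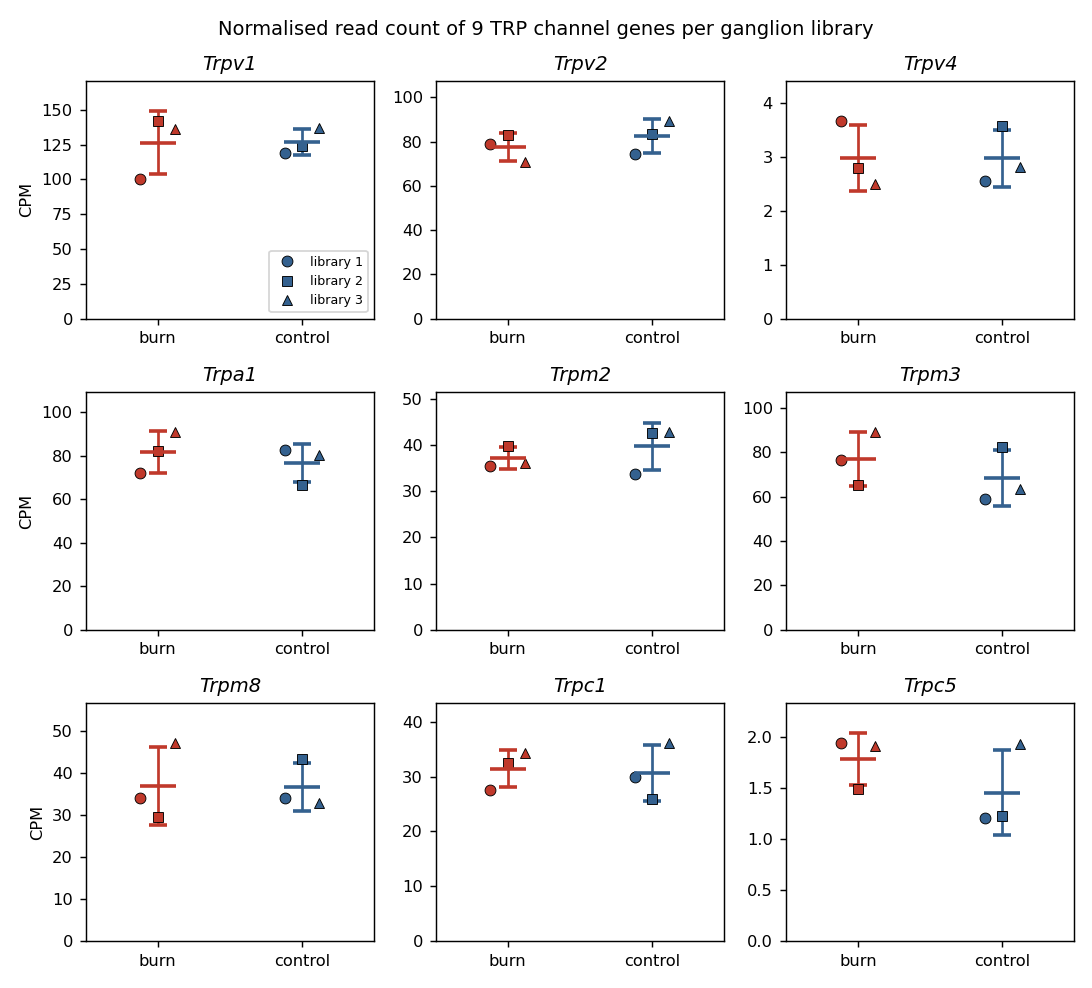
Normalised read count (CPM) of each of the 9 genes in every library, burn (red) left of control (blue); horizontal lines are group means, bars are SD (n = 3), and circles, squares and triangles are libraries 1, 2 and 3 of each group. The groups overlap in all 9 panels.

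Among the sensors of irritants and cold, Trpa1 had 71.9, 82.3 and 91.0 CPM in burn libraries and 82.5, 66.5 and 80.5 CPM in controls. Its highest value was in burn 3 and its lowest in control 2, and the groups overlapped. The log2 fold change was 0.095 (SE 0.13), with an interval of 0.862-fold to 1.32-fold, and it was 0.0028 without control 2 and 0.18 without burn 1. Trpm8 had 34.2, 29.4 and 47.2 CPM in burn libraries and 34.1, 43.3 and 32.9 CPM in controls. The burn libraries held both extremes of Trpm8, and its coefficient of variation of 18.6% was above the 13.5% of the median gene. Its log2 fold change of 0.013 (SE 0.20) therefore stood for libraries that differed among themselves by up to 1.60-fold.

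Trpc1 had 27.7, 32.5 and 34.2 CPM in burn libraries and 29.8, 26.0 and 36.2 CPM in controls, with both extremes among the controls (log2 fold change 0.035, SE 0.15). Trpv4 and Trpc5 were sparse, and counting error took a larger part of their spread. Trpv4 had 83, 84 and 164 reads in burn libraries and 93, 64 and 224 reads in controls, which gave 3.67, 2.78 and 2.49 CPM after burn and 2.54, 3.56 and 2.81 CPM in controls. Its highest values were in burn 1 and control 2, 1 library of each group, and its log2 fold change was 0.0053 (SE 0.23). Trpc5 had 44, 45 and 126 reads in burn libraries and 44, 22 and 154 reads in controls. In CPM these were 1.94, 1.49 and 1.92 after burn and 1.20, 1.22 and 1.94 in controls. Every burn library was above controls 1 and 2, and control 3 lay among the burn libraries. Trpc5 had the largest log2 fold change of the 9, 0.27 (SE 0.27; interval 0.778-fold to 1.87-fold; edgeR unadjusted p = 0.353, adjusted p = 0.9998). The 22 reads of control 2 alone allowed 0.767 to 1.85 CPM by an exact 95% Poisson interval, which covers counting error only. Leaving out 1 library at a time moved the log2 fold change of Trpc5 between 0.14, without control 1, and 0.56, without control 3, and Trpc5 was called in none of these fits.

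**Figure D3:**
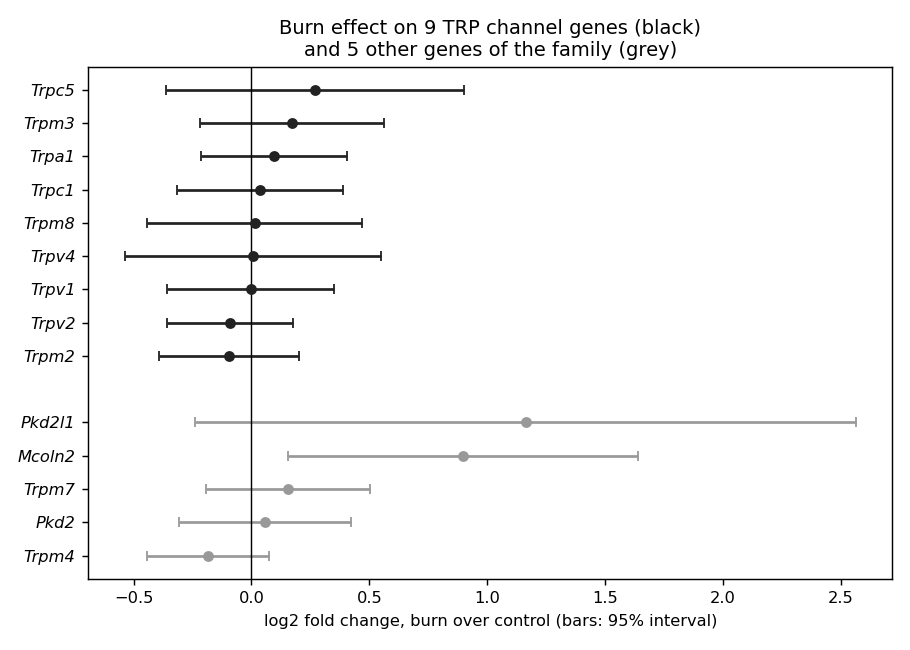
Log2 fold change, burn over control, with 95% intervals from edgeR, for the 9 genes (black, upper block) and 5 other genes of the family (grey, lower block: Mcoln2, Pkd2l1, Trpm4, Trpm7 and Pkd2), each block ordered by its value. The intervals of all 9 include 0, and in the grey block that of Mcoln2 does not.

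The burn effect was also taken within depth classes, between the deep pair burn 3 and control 3 and among the other 4 libraries. Trpm8 differed by 0.52 on the log2 scale in the deep pair and by -0.28 among the other 4, so the near-zero value over all libraries joined opposite signs. An interaction of group with depth class, added after the data were seen, gave a difference of 0.80 for Trpm8 that did not pass (edgeR adjusted p = 0.999). Its unadjusted p in edgeR was 0.0189, in a test where 777 of 17534 genes had an unadjusted p under 0.05 and 16 were called. The deep libraries were also the pair with the higher mitochondrial shares, whose part in this was not tested. Trpm3 differed by 0.49 in the deep pair and by 0.012 among the other 4 libraries. For Trpc5 the order was the other way, -0.013 in the deep pair and 0.48 among the other 4. Trpv1 had -0.0075 and -0.023, both near 0. Each deep value compares 1 library with 1 library and has no replicate check.

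**Figure D4:**
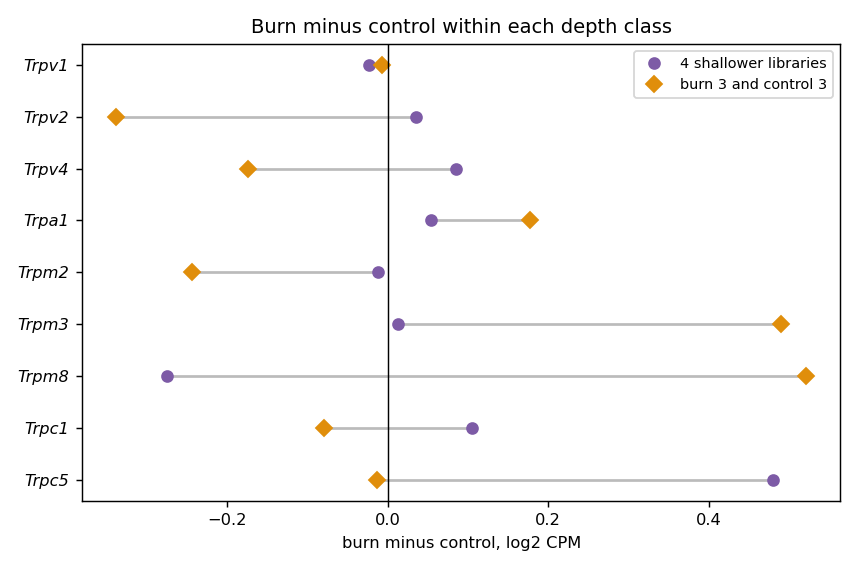
Burn minus control on the log2 CPM scale for each gene, within the deep pair (burn 3 and control 3, orange diamonds) and among the 4 shallower libraries (difference of means, purple circles). Trpm8 lies at 0.52 in the deep pair and at -0.28 in the others, while both values of Trpv1 lie near 0.

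Across libraries some TRP genes varied side by side, whichever the group. Likeness was measured as the root mean square difference of log2 CPM, each gene centred on its own mean over the 6 libraries, as a description with no test. The closest of the 36 pairs were Trpv2 and Trpm2, at 0.073. Next came Trpa1 and Trpc1 at 0.097, then Trpm3 and Trpm8 at 0.13. The pairs least alike were Trpm8 and Trpc5, at 0.38, and Trpv4 and Trpc5, at 0.37. This measure grows with the spread of each gene, which was largest for Trpc5 (SD of log2 CPM 0.30). A large value therefore need not mean that 2 genes varied in opposite directions. Trpv4 and Trpa1, at 0.36, did lie on opposite sides of their means in every library. Trpv1 was nearest to Trpc1, at 0.13, and lay 0.15 from both Trpa1 and Trpm2. Burn 3 and control 2 were the libraries where Trpm3 and Trpm8 were highest. The summed level of 9 myelinating Schwann cell markers was also highest there, at 8906 CPM in burn 3 and 9789 CPM in control 2, within ranges of 4323 to 8906 CPM in burn libraries and 5289 to 9789 CPM in controls. Trpv4 was highest in burn 1 and control 2, where 8 endothelial markers also summed highest, at 251 CPM and 267 CPM, within ranges of 188 to 251 CPM in burn libraries and 186 to 267 CPM in controls. None of these markers was at 0, and their part in the TRP values was not tested.

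**Figure D5:**
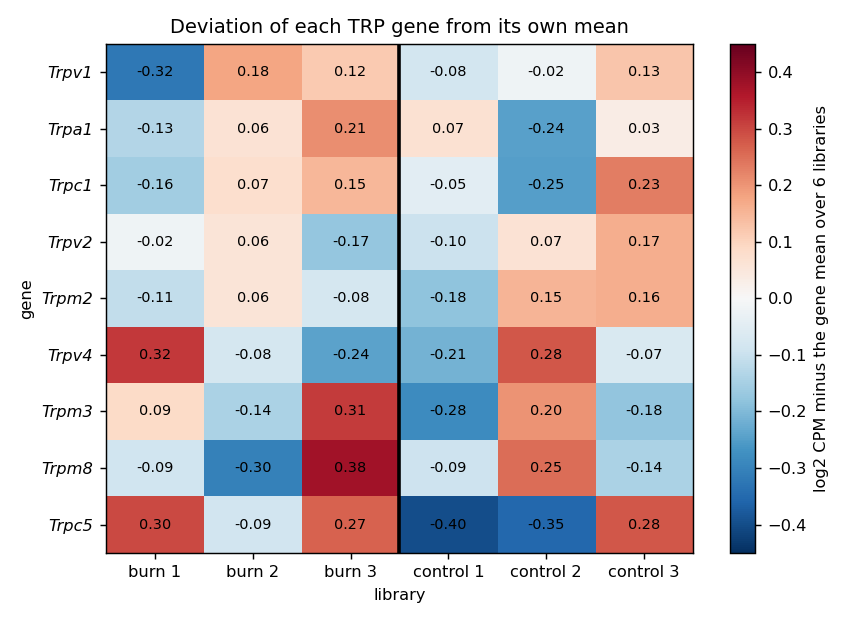
Deviation of log2 CPM from each gene's mean over the 6 libraries, genes in rows and libraries in columns, burn left of the black line and control right of it; red is above and blue below the gene's mean. Trpm3 and Trpm8 are both highest in burn 3 and next highest in control 2, and Trpv1 is lowest in burn 1.

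Of 15541 other genes of at least 1 CPM, those most like each TRP gene over the 6 libraries were named by the same measure, 2 each. For Trpv1 they were Gm2962 (0.043) and Chrna6, a nicotinic acetylcholine receptor subunit (0.055). For Trpa1 they were Srp9, part of the signal recognition particle (0.025), and Odf2l (0.028). For Trpm3 they were Cacna1c, an L-type calcium channel subunit (0.026), and Ctnnd1, which encodes p120 catenin (0.043), and for Trpm8 Sptb, a spectrin (0.061), and Znrf3, a ubiquitin ligase (0.081). For Trpv2 they were Mblac1 and Fdps (0.022 each) and for Trpm2 Amer3 and Nsmf (0.034 each). For Trpc1 they were Mapk9 (0.024) and Ric3 (0.025). For Trpv4 they were Vrk3 (0.033) and Emcn, an endothelial gene (0.038), and for Trpc5 Slc1a1, a glutamate transporter (0.078), and Cxcl9, a chemokine (0.081). With 6 libraries and this many candidates, close matches arise for any gene.

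The rest of the TRP family, 19 further genes of the TRPV, TRPM, TRPC, mucolipin and polycystin branches, gave a like picture. Of the 19, 15 passed the filter on low counts, and 0 of these 15 were called by edgeR, DESeq2 or limma-voom. Their median log2 fold change was 0.056, with 9 positive and 6 negative values. At an edgeR unadjusted p under 0.05 there was 1 of the 15, against 2.96% of all tested genes. This was Mcoln2, a lysosomal channel known from immune cells. It had 2.12, 1.76 and 1.45 CPM in burn libraries and 0.956, 1.34 and 0.653 CPM in controls, every burn library above every control. Of the 15, only Mcoln2 had groups that did not overlap, against 7.24% of all tested genes. Its log2 fold change was 0.90 (SE 0.32, edgeR adjusted p = 0.9998), from 24 to 95 reads a library. The 11 listed macrophage markers found in the tables, none at 0, summed to 446 to 893 CPM in burn libraries and 404 to 782 CPM in controls. Their sum was highest in burn 1, where Mcoln2 was also highest. The 2 orders differed elsewhere. Burn 3, with a sum of 446 CPM, held more Mcoln2 than controls 1 and 2, with sums of 782 and 748 CPM. Their part in the value of Mcoln2 was not tested.

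Pkd2l1, a polycystin channel known from fluid-contacting neurons of the spinal cord, had 18, 6 and 38 reads in burn libraries and 14, 4 and 10 reads in controls. The groups overlapped, with burn 2 at 0.0563 CPM per kb, below controls 1 and 2 at 0.108 and 0.0631 CPM per kb. Its log2 fold change was 1.16 (SE 0.60, edgeR unadjusted p = 0.0913). Spinal cord markers also summed higher in the burn libraries, and their part in the value of Pkd2l1 was not tested. Trpm4, a calcium-activated monovalent cation channel, had 24.0 ± 1.83 CPM after burn and 27.3 ± 1.49 CPM in controls (n = 3; log2 fold change -0.19, SE 0.11). Trpm7, a channel fused to a kinase, had 102 ± 16.2 CPM after burn and 91.3 ± 11.1 CPM in controls (n = 3). Pkd2, which encodes polycystin 2, had 60.1 ± 10.03 CPM after burn and 57.9 ± 7.23 CPM in controls (n = 3).

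A list of 23 partners and sensitisers of TRP channels held membrane proteins that bind them, kinases and phospholipases that modulate them, and receptors of growth factors, proteases, bradykinin and prostaglandins that act on them. Of its 22 tested members 0 were called by edgeR, DESeq2 or limma-voom, and 0 had an edgeR unadjusted p under 0.05. The median log2 fold change was -0.0041, with 11 positive and 11 negative values. F2rl1, the protease-activated receptor 2, had 2, 10 and 28 reads in burn libraries and 23, 9 and 40 reads in controls. In CPM it was below every control in each burn library, at 0.0883, 0.331 and 0.426 against 0.628, 0.501 and 0.503. It was the only 1 of the 22 whose groups did not overlap, against 7.24% of all tested genes. Its log2 fold change of -0.82 (SE 0.45) did not pass (edgeR unadjusted p = 0.111). Prkce, a protein kinase C form that phosphorylates TRPV1, had 220 ± 45.6 CPM after burn and 189.9 ± 22.6 CPM in controls (n = 3; edgeR unadjusted p = 0.244). Pirt, a membrane partner of TRPV1 and TRPM8, stood at 1051 ± 101 CPM after burn and 1041 ± 126 CPM in controls. Plcb3, a phospholipase C, had 443 ± 21.6 CPM after burn and 468 ± 41.2 CPM in controls (n = 3 each).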

How the data were processed

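For each library the authors deposited a table of raw counts, in whole reads by gene symbol, made from stranded total RNA sequenced as single reads of 75 nucleotides, per the labels' protocols. Per the submitters' processing notes, tools included STAR, SAMtools and HTSeq, and builds are listed as mm10 and GRCm38, with versions, annotation and use of strand not given in the sources used here. The 5 HTSeq tally lines, 49.2% to 56.2% of entries, were left out; most were alignments that were not unique. Pairs of libraries within a group differed by more than counting noise (chi-square over its degrees of freedom 40.5 to 189), so none was 1 library deposited again; this does not show that they came from separate animals.

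Counts were fitted for all genes in R 4.3.3 with edgeR 4.0.16: filterByExpr (minimum count 10, minimum total 15), TMM scaling, a robust quasi-likelihood F test with group as the only term, Benjamini-Hochberg adjustment over 17534 genes, calls at an adjusted p under 0.05, after the procedure was tested on simulated data. The standard error is the log2 fold change over the square root of F, and 95% intervals use the t quantile of the fit. CPM use the scaled library sizes of the tested genes, and log2 CPM for likeness and depth classes had 0.5 reads added. Per-kb levels use the union of GENCODE M21 exons, in which 28 of 28 family symbols were found. Alternatives were RLE and upper quartile scaling, scaling to 12 neuron genes, other filters, DESeq2 1.42.0, limma-voom (limma 3.58.1), an adjusted p under 0.1, depth terms, a fit with a replicate block, and the omission of 1 library at a time. In DESeq2, 11999 of the 38926 symbols, those without reads included, had an adjusted p of NA. The 9 genes, all lists and the depth split were chosen with earlier results of these data known. All 9 genes were named, and of the 2 further lists the called genes, the 3 of lowest unadjusted p and the 3 of highest mean CPM; some of these are not reported here. Figures were drawn with matplotlib 3.10.9.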

Additional observations from a re-analysis of the deposited data

How the results depend on the processing

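Over 144 combinations of a TRP gene and an alternative, 0 passed an adjusted p under 0.05 and 0 an unadjusted p under 0.05 (lowest 0.073), and the counts of called TRP genes, family genes and partners were 0 in every alternative. The sign held in 117 of the 144 and turned in 27, of which 22 were for Trpv1, Trpv4, Trpm8 and Trpc1, 3 for Trpv2 and 2 for Trpm2. RLE scaling gave 0.0027 for Trpv1, and upper quartile scaling -0.0038 for Trpv4 and -0.0046 for Trpm8. Scaling to neuron genes, which moved the median of all genes to 0.15, gave 0.13 for Trpv1, 0.058 for Trpv2 and 0.047 for Trpm2. These 3 and Trpm8, at 0.13, lay below that median. Trpv4, at 0.153, Trpc1, at 0.20, Trpa1, at 0.24, Trpm3, at 0.30, and Trpc5, at 0.49, lay above it. Trpv4 had -0.0059 with no filter and -0.011 in limma-voom, and Trpv1 0.0083 with the stricter filter. The depth term gave -0.0047 for Trpv4 and -0.0071 for Trpm8, and the 4 shallower libraries gave 0.014 for Trpv1, 0.050 for Trpv2 and -0.26 for Trpm8. Replicate numbers in the titles were shared by 2 libraries of each group, and the deviations of same-numbered libraries had correlations of -0.082 and -0.055, so the numbers were not taken to pair them. Burn 1 with control 2 had 0.42, burn 2 with control 1 had 0.37 and burn 3 with control 3 had 0.43, and no fit with a block over these pairs was run. With a replicate block over these 4 libraries 0 TRP genes and 4 genes in all were called, and Trpv2 had 0.050, Trpm2 0.0021 and Trpm8 -0.26. Leaving out 1 library at a time gave -0.096 to 0.14 for Trpv1, -0.17 to 0.14 for Trpv4, -0.19 to 0.15 for Trpm8, -0.071 to 0.18 for Trpc1, 0.14 to 0.56 for Trpc5, 0.061 to 0.32 for Trpm3, 0.0028 to 0.18 for Trpa1, -0.16 to -0.017 for Trpv2 and -0.20 to -0.025 for Trpm2. The count of 4 called genes over the whole table ranged from 1 to 6 without 1 library, with 1 call without burn 2, control 1, control 2 or control 3. It was 12 with scaling to neuron genes, 14 with no filter, 28 in DESeq2, 7 at an adjusted p under 0.1, 38 with the depth term and 15 in the 4 shallower libraries. With the longest transcript as length, levels were 21.8 CPM per kb for Trpv2, 0.922 for Trpv4, 5.28 for Trpm2, 5.90 for Trpm3 and 6.81 for Trpc1. Depth limits Trpv4 and Trpc5 most, with counting errors of up to 12.5% and 21.3% in the shallowest library. The cause of these shifts was not tested.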
